A study of Mus musculus with 7 samples.

Results

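The collagen genes were followed here across the 7 arrays of a study of the histone demethylase Utx in reprogramming. Members were all array rows whose single gene symbol had the form Col, number, a, number, except Col17a1, with the row of highest mean standing for a gene. That gave 41 genes of 13562, each with 1 row, and the rule itself uses no measured value. Col19a1 and Col28a1 had no row with a single symbol and were not analysed here. Each array stood for 1 condition. Of these, 2 held V6.5 embryonic stem cells (ESCs), Utx -/Y (KO) and Utx +/Y (WT), grown in N2B27 medium with 2i and LIF. The third held fibroblasts derived from Nanog-/- ESCs, transduced for 8 days with an OSKM lentivirus, which carries Oct4, Sox2, Klf4 and Myc. The other 4 were mouse embryonic fibroblasts (MEFs) labelled V19-OSKM, in which doxycycline (DOX) switches the factors on: Utx -/Y and Utx +/Y with DOX, and Utx -/Y and Utx +/Y without it. The labels name the ESC medium for every sample, and give neither the length of the DOX treatment nor the number of animals or clones behind a library.

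Collagens are triple helices of chains rich in glycine and proline. Fibrillar collagens assemble into the fibres of skin, bone, tendon and cartilage, and FACIT collagens sit on the surface of those fibres. Collagen IV forms the sheet of basement membranes, collagens VIII and X form open networks, and collagen VI forms beaded filaments around cells. Fibroblasts are the main makers of fibrillar collagen, whereas naive ESCs make little of it.

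Levels below are the log2 values deposited by the authors, and differences are log2 differences of 2 arrays. A gene counted as above the floor where its value exceeded 7.34, the 40th percentile of all values, and it was called higher or lower at 2-fold or more where the higher of the 2 values was above the floor. Where the lower value lay under the floor, the fold is given as at least that obtained with the floor in its place. With 1 array per condition no difference has a replicate check, no test was made, and precision is limited by there being so few arrays. In bulk RNA, fewer cells of a type and less RNA per cell cannot be told apart.

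Promoter sequences are shown for the collagens that were lower in the KO ESCs and that the RefSeq promoter table (GRCm38.p6) holds, because these genes differed together. They are the 250 bases before the transcription start, 5′ to 3′ on the gene's strand. Capitals mark 3 motifs read on either strand, the TATA box as TATAAA, the CCAAT box, and the Sp1-type box as GGGCGG. Col1a2 lies at chr6:4505368-4505617 on the + strand, Col8a1 at chr16:57754738-57754987 on the - strand and Col10a1 at chr10:34389731-34389980 on the + strand.
Col1a2: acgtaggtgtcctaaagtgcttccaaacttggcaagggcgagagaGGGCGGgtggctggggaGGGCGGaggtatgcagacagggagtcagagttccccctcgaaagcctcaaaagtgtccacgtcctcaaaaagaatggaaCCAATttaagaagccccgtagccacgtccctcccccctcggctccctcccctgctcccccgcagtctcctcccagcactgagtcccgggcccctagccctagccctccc
Col8a1: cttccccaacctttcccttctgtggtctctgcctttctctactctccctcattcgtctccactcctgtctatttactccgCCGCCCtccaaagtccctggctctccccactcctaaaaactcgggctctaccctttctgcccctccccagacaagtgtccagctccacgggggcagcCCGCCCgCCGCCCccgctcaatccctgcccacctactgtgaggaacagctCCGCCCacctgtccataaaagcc
Col10a1: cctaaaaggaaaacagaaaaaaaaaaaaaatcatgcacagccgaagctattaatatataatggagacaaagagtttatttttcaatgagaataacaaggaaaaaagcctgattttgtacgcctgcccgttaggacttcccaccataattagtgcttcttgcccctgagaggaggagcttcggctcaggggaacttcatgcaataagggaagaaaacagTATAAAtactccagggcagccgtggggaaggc
The Col1a2 window held CCAAT and GGGCGG, the Col8a1 window GGGCGG alone, and the Col10a1 window TATAAA alone, starting 32 bases before the transcription start. Of the 41 genes, 32 had an entry, with 35 windows. GGGCGG stood in 22 of the 35 collagen windows (62.9%) and in 32.7% of all 32851 windows of the same length in the table. CCAAT stood in 12 (34.3%), against 33.9% of all windows, and TATAAA in 4 (11.4%), against 12.4%. The median GC content was 59.6% over the collagen windows and 52.4% over all windows. Such a match describes letters only and marks no bound site.

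Of the 41 collagens, 23 were above the floor on at least 1 of the 6 Utx arrays. The other 18 read 4.92 to 7.29 there, all under the floor: Col4a3 to Col4a6, Col5a3, Col6a4 to Col6a6, Col7a1, Col8a2, Col9a1, Col11a2, Col13a1, Col20a1, Col22a1, Col23a1, Col24a1 and Col25a1. On the Nanog KO array 11 of these 18 passed the floor, at up to 8.15. That array had a median of 8.55 over all rows, against 7.68 to 7.84 on the other 6. With array medians aligned, 22 collagens stood above the floor on it, against 33 as deposited. Counts of called collagens in its comparisons are therefore given both ways, while its levels are given as deposited.

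Kdm6a, the gene of Utx, read 7.97 in KO ESCs and 9.12 in WT ESCs. With DOX it read 7.57 in the MEF library labelled KO and 8.93 in WT MEFs, and without DOX 6.32 in the library labelled KO and 8.22 in WT MEFs, and it read 9.08 on the Nanog KO array. The DOX labels of the KO MEFs fitted less well with Pou5f1, the Oct4 gene that DOX induces. It read 5.12 in the library labelled KO with DOX and 11.26 in the one labelled KO without DOX, against 12.59 in WT with DOX and 8.19 in WT without DOX. Both KO MEF libraries are therefore named by their labels, on which each of their directions rests. The labels give a Y chromosome to all Utx samples, but the Y-linked gene Eif2s3y read 4.19 in KO ESCs and 8.52 in WT ESCs. In MEFs it read 5.42 and 8.56 with DOX and 4.46 and 8.28 without DOX in the libraries labelled KO and WT. Uty, another Y-linked gene, read 3.68 in KO ESCs and 8.44 in WT ESCs, and 6.95 to 7.61 in the 4 MEF libraries. The part of this difference in the collagen results was not tested. Where the Kdm6a probes lie relative to the deleted part of the gene is not known here.

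**Figure D1:**
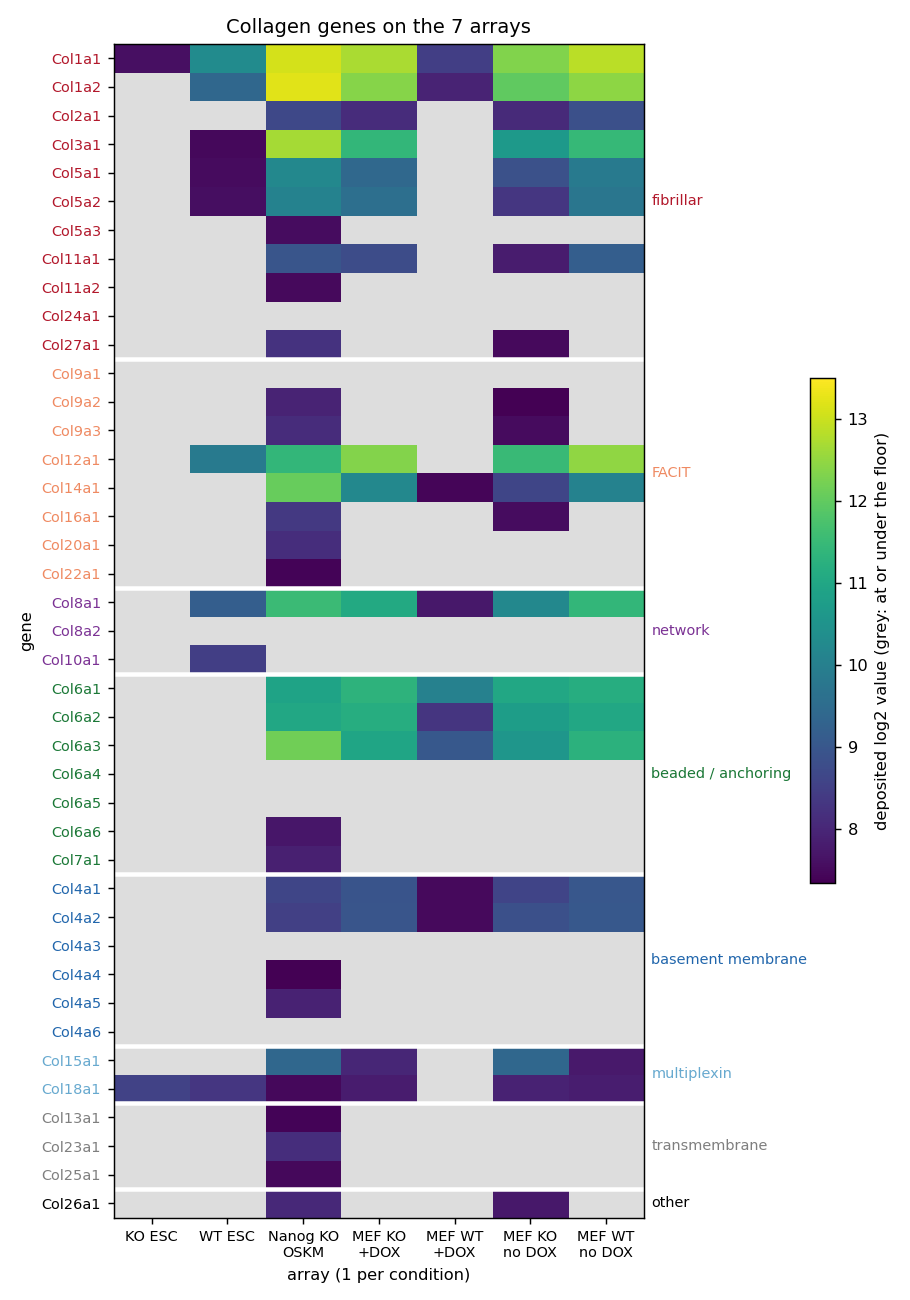
Deposited log2 values of the 41 collagens (rows, grouped by family) on the 7 arrays (columns), with grey for values at or under the floor of 7.34. Only Col1a1 and Col18a1 are above the floor in KO ESCs, against 9 collagens in WT ESCs.

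As deposited, Col16a1, Col27a1, Col9a2, Col9a3 and Col26a1 were above the floor on the Nanog KO array and, of the Utx arrays, in the library labelled KO without DOX alone. Col16a1, a FACIT member, read 6.25 in KO ESCs, 6.28 in WT ESCs, 8.36 on the Nanog KO array, 7.27 and 6.29 with DOX in MEFs labelled KO and WT, and 7.53 and 7.26 without DOX in MEFs labelled KO and WT. Col27a1, a fibrillar member, read 7.50 in the library labelled KO without DOX and 8.24 on the Nanog KO array. In WT MEFs without DOX it read 7.337, barely under the floor of 7.340. The collagen IX chains Col9a2 and Col9a3, which coat cartilage fibrils, read 7.35 and 7.52 in the library labelled KO without DOX and 6.89 and 6.95 in WT MEFs without DOX. On the remaining Utx arrays these chains lay at 6.74 to 6.99, under the floor. This set of genes depends on the floor, which Col9a2 passed narrowly, and on the scaling. The library labelled KO without DOX had the lowest array median, 7.68. With array medians aligned, 20 collagens passed the floor in WT MEFs without DOX, against 17 as deposited. On the Nanog KO array 22 did, against 33.

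In ESCs, 3 of the 5 fibrillar members above the floor were called lower in the KO library. The 1 FACIT member and the 2 network members above it were lower too. Members of the remaining families lay within 2-fold or under the floor in both. Among 9 collagens above the floor, KO ESCs had 6 called lower and 0 called higher. Over all genes above the floor 3.18% were lower and 0.651% higher. The median difference was -0.12 over all 41 collagens and -2.17 over the 9 above the floor, and over all genes above the floor it was 0.06. All 9 were above the floor in WT ESCs and 2 of them in KO ESCs. Most thus entered through the WT array alone, which by itself lowers the median over the 9. The 6 were Col1a1, Col1a2, Col5a2, Col12a1, Col8a1 and Col10a1.

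Col1a1 and Col1a2, the chains of collagen I, the main fibre of skin and bone, were each lower. Col1a1 read 7.59 in KO ESCs and 10.30 in WT ESCs, a difference of -2.71 or 6.57-fold lower. Col1a2 read 6.46 in KO ESCs and 9.40 in WT ESCs, at least 4.18-fold lower. Col5a2, a chain of the collagen V that starts fibrils, read 5.78 in KO ESCs and 7.58 in WT ESCs. Since the WT value was itself close to the floor, its fold is at least 1.18. Col3a1, the fibrillar collagen of elastic tissues, differed by -0.79 and Col5a1 by -0.53, both within 2-fold.

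Col12a1, a FACIT collagen that bridges fibrils, read 6.5 in KO ESCs and 9.88 in WT ESCs, a difference of -3.37 or at least 5.81-fold lower. Both network collagens above the floor were lower too. Col8a1, a chain of the short-chain collagen of vessel walls and the eye, read 6.48 in KO ESCs and 9.17 in WT ESCs, at least 3.56-fold lower. Col10a1, known from the hypertrophic cartilage of growth plates, read 6.32 in KO ESCs and 8.48 in WT ESCs, at least 2.21-fold lower.

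Col10a1 was the one collagen whose highest level over the 7 arrays was in WT ESCs, and WT ESCs were the only array on which it was above the floor. It read 5.91 on the Nanog KO array, 7.20 and 6.25 with DOX in the MEFs labelled KO and WT, and 7.29 and 6.95 without DOX in the MEFs labelled KO and WT. Col18a1, the multiplexin whose end fragment is endostatin, had its highest levels in ESCs. It read 8.55 in KO ESCs and 8.32 in WT ESCs, a difference of 0.23. The collagen IV chains Col4a1 and Col4a2 were under the floor in both ESC libraries, at 6.79 and 6.42 in KO ESCs and 7.11 and 6.91 in WT ESCs.

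Genes of collagen crosslinking were lower in KO ESCs as well. Of 4 lysyl oxidase genes measured, 3 were above the floor and all 3 were lower in KO ESCs. Lox, which starts the crosslinking of fibrils, read 7.96 in KO ESCs and 11.51 in WT ESCs. Of the 13 genes above the floor on the list of collagen folding and modification, 0 were called in either direction, with a list median of -0.36 over 17 measured. Over all genes above the floor 3.18% were lower and 0.651% higher, so 0 called on a list of this size says little. The other members measured were under the floor in both, where a difference cannot be judged. Serpinh1, the chaperone of procollagen, read 7.94 in KO ESCs and 8.72 in WT ESCs. Ddr2, a receptor tyrosine kinase for fibrillar collagen, read 5.43 in KO ESCs and 8.01 in WT ESCs, at least 1.59-fold lower, and 3 of the 4 receptor and uptake genes above the floor were lower. The 10 genes above the floor among the basement membrane partners were all within 2-fold.

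Markers of mesenchymal and of some epithelial cells were lower in KO ESCs too. Of 10 fibroblast markers measured, 1 was above the floor in KO ESCs and 5 in WT ESCs, with median levels of 5.89 and 7.60. All 5 were lower in KO ESCs, with Prrx1 at 5.88 in KO and 9.09 in WT ESCs. All 6 smooth muscle markers were lower in KO ESCs, with median levels of 7.21 in KO and 10.44 in WT ESCs. Of 6 epithelial markers above the floor 3 were lower, with Krt18 at 6.86 in KO and 9.01 in WT ESCs and Krt8 at 8.67 and 10.51. Lum and Dcn, fibroblast matrix genes, read 3.81 and 5.05 in KO ESCs and 3.95 and 6.03 in WT ESCs, under the floor in both. The 9 pluripotency markers were above the floor in both, with medians of 11.33 in KO and 11.15 in WT ESCs. The part of these cell markers in the collagen difference was not tested, and, each genotype having 1 ESC library, Utx loss and other differences of the cultures cannot be told apart.

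**Figure D2:**
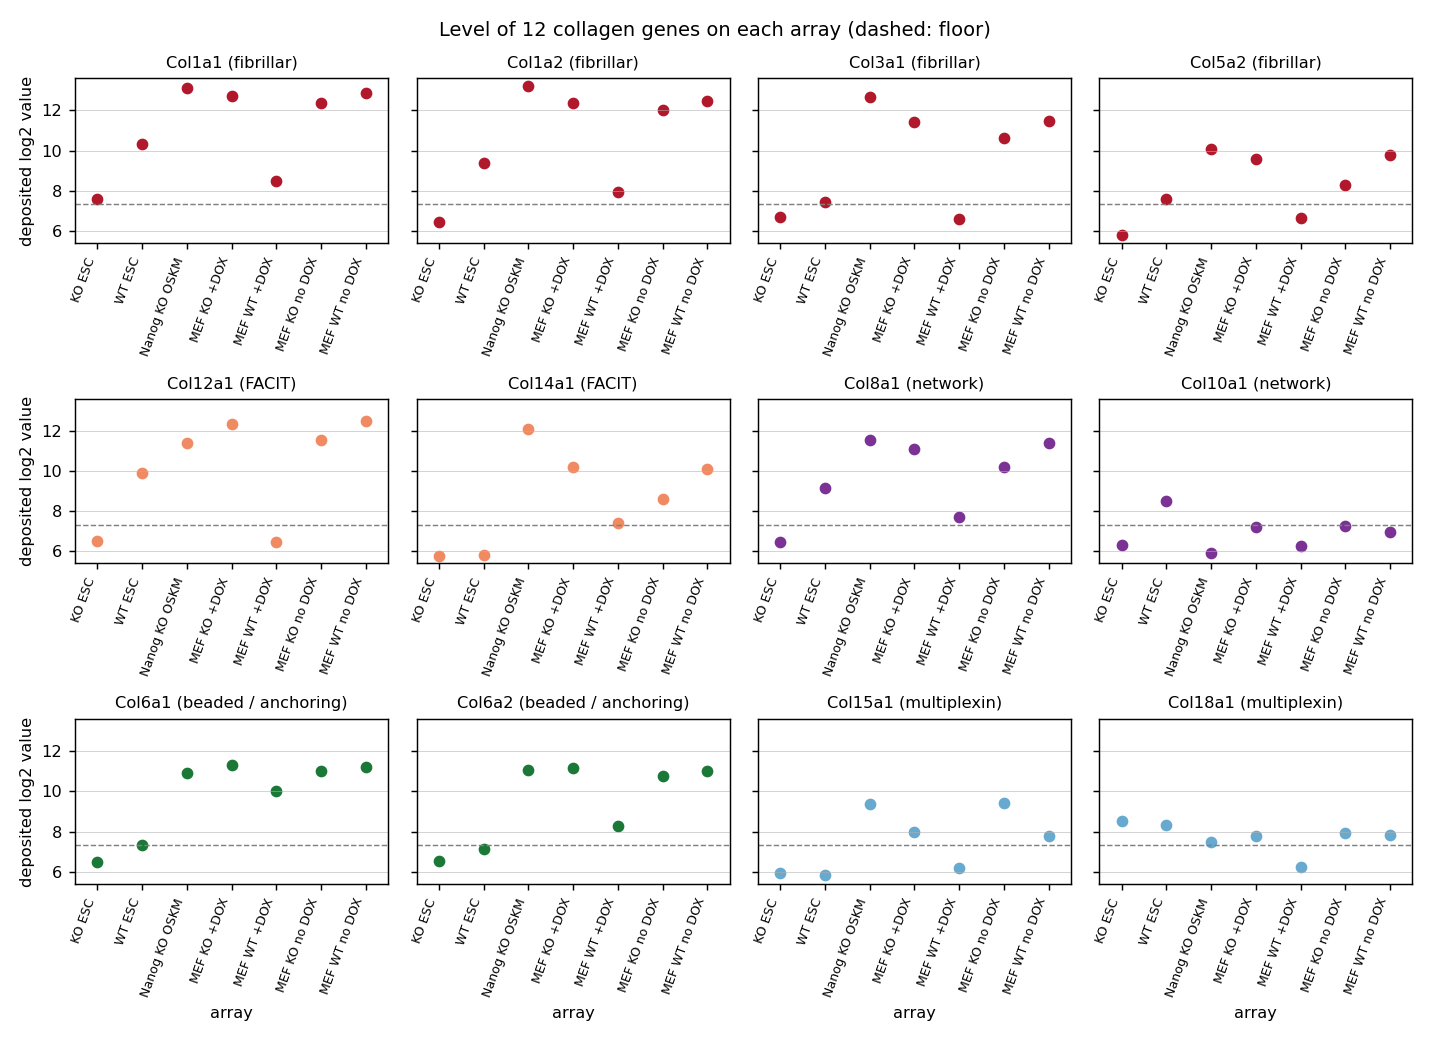
Deposited log2 value of 12 collagens on each of the 7 arrays, 1 point per array, with the floor of 7.34 dashed. Col1a1, Col1a2, Col12a1 and Col8a1 are lower in KO than in WT ESCs and lower in WT MEFs with DOX than without, whereas Col10a1 is above the floor in WT ESCs alone and Col18a1 is highest in ESCs.

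With DOX, all collagens above the floor in the WT MEFs were, as deposited, lower than without it. That was 17 of 17, with 0 higher, and covered fibrillar, FACIT, network, beaded filament, basement membrane and multiplexin members. Over all genes above the floor 13.7% were lower and 11.9% higher. With array medians aligned, 18 of 20 collagens were lower and 0 higher, where 1331 of 9733 genes were lower and 1141 higher. The median difference was -0.69 over the 41 collagens, -2.66 over the 17 and 0.00 over all genes above the floor. All 17 were above the floor without DOX and 9 of them with DOX, so the others entered through the array where they were higher.

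Among the 7 fibrillar genes above the floor the differences ran from -4.88 to -1.95. Col3a1 read 6.59 in WT MEFs with DOX and 11.47 without, a difference of -4.88 or at least 17.6-fold lower. Col1a2 read 7.95 with DOX and 12.44 without, 22.5-fold lower, and Col1a1 read 8.49 with DOX and 12.86 without, 20.7-fold lower. These 2 chains of collagen I thus differed alike, at -4.49 and -4.37. Col11a1, a minor chain of cartilage fibrils, read 5.98 with DOX and 9.19 without. Col5a2 and Col5a1 differed by -3.13 and -2.55. Col2a1, the main collagen of cartilage, read 6.89 with DOX and 8.83 without, at least 2.82-fold lower.

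The FACIT genes above the floor were Col12a1 and Col14a1, which both decorate collagen I fibrils. Col12a1 read 6.49 in WT MEFs with DOX and 12.47 without, a difference of -5.99 or at least 35.1-fold lower. Col14a1 read 7.42 with DOX and 10.08 without, 6.33-fold lower. Of the network genes Col8a1 was above the floor, at 7.74 with DOX and 11.41 without, 12.8-fold lower.

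The chains of collagen VI differed unequally with DOX in WT MEFs. Col6a1 read 10.04 with DOX and 11.19 without, 2.22-fold lower. Col6a2, which neighbours Col6a1 on chromosome 10 and whose chain joins it in the same trimer, read 8.30 with DOX and 11.04 without, 6.68-fold lower. Col6a3, the third chain, read 9.03 with DOX and 11.30 without. Of the 3, Col6a1 thus differed least.

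Col4a1 and Col4a2, the common chains of basement membranes, are neighbours on chromosome 8 and differed alike. Each read 7.50 in WT MEFs with DOX, against 9.02 for Col4a1 and 9.03 for Col4a2 without DOX. Their differences were -1.51 and -1.53. The same pair differed by 1.43 and 1.48 between the library labelled KO and WT MEFs with DOX, and by -1.90 and -2.12 between WT ESCs and WT MEFs without DOX. The multiplexins, Col15a1 of muscle and vessel basement membranes and Col18a1, read 6.20 and 6.24 with DOX and 7.76 and 7.83 without. Their lower value was under the floor, so the folds are at least 1.34 and 1.40.

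Genes that fold, process and crosslink collagen were mostly lower with DOX in WT MEFs as well. On the folding and modification list 10 of 17 members were lower and 0 higher, with a median of -1.10. P4ha3, a prolyl hydroxylase subunit, read 6.83 with DOX and 11.14 without, and Plod2, a lysyl hydroxylase, read 7.87 with DOX and 11.13 without. On the crosslinking list 3 of 4 were lower, with Lox at 9.66 with DOX and 12.86 without. Loxl4 went the other way, at 10.67 with DOX and 8.66 without, as did Pcolce2, an enhancer of procollagen processing, at 10.75 with DOX and 8.97 without. Of the receptors, 4 of 7 above the floor were lower, led by the collagen-binding integrin genes Itga11, at 5.59 with DOX and 11.50 without, and Itga1, at 4.81 with DOX and 9.14 without.

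Basement membrane partners were in part lower with DOX in WT MEFs. Of 11 above the floor, 4 were lower and 1 was higher, where 13.7% of all genes were lower and 11.9% higher. Nid1, which links laminin to collagen IV, read 7.21 with DOX and 11.18 without. Lama5, a laminin chain of epithelial and other basement membranes, read 10.95 with DOX and 8.01 without. Col4a1 and Col4a2 differed in the direction of Nid1.

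Markers of other cells moved in that comparison too. Fibroblast markers above the floor numbered 6 of 10 with DOX and 10 of 10 without, with median levels of 8.26 and 10.96. The fibroblast genes Dcn and Prrx1 differed little, at 12.13 and 11.38 with DOX and 11.85 and 11.85 without, whereas Lum read 4.23 with DOX and 9.82 without. Epithelial markers had a median of 9.97 with DOX and 5.79 without, smooth muscle markers 6.29 and 12.04, and macrophage markers 5.29 and 9.53. The part of these cell types in the collagen differences was not tested.

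In MEFs with DOX, the library labelled KO had higher collagens than the WT library. Each of the 17 above the floor was called higher and 0 were called lower, where 14.3% of all genes above the floor were higher and 12.1% lower. The median difference was 0.95 over 41 collagens, 2.78 over the 17 and -0.0008 over all genes above the floor. All 17 were above the floor in the library labelled KO and 9 of them in WT, so here too the others entered through the higher array. Col12a1 read 12.35 in the library labelled KO and 6.49 in WT, at least 32.2-fold higher. Col3a1 read 11.41 in the library labelled KO and 6.59 in WT, at least 16.8-fold higher, and Col1a1 read 12.72 and 8.49, 18.8-fold higher. Col2a1, Col15a1 and Col18a1 were under the floor in WT, so their folds are at least 1.71, 1.58 and 1.38. This comparison shares the WT array with DOX with the preceding one.

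On the folding and modification list 12 of 17 members were higher with DOX in the library labelled KO, relative to WT, and 0 lower. P4ha3 read 10.81 in the library labelled KO and 6.83 in WT, and P3h3, a member of the prolyl 3-hydroxylase family, read 10.96 and 7.51. Loxl4, at 8.31 in the library labelled KO and 10.67 in WT, and Pcolce2, at 6.45 and 10.75, were lower. Fibroblast markers had a median of 11.21 in the library labelled KO and 8.26 in WT, epithelial markers 5.52 and 9.97, and macrophage markers 7.18 and 5.29. Their part in the result was not tested.

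**Figure D3:**
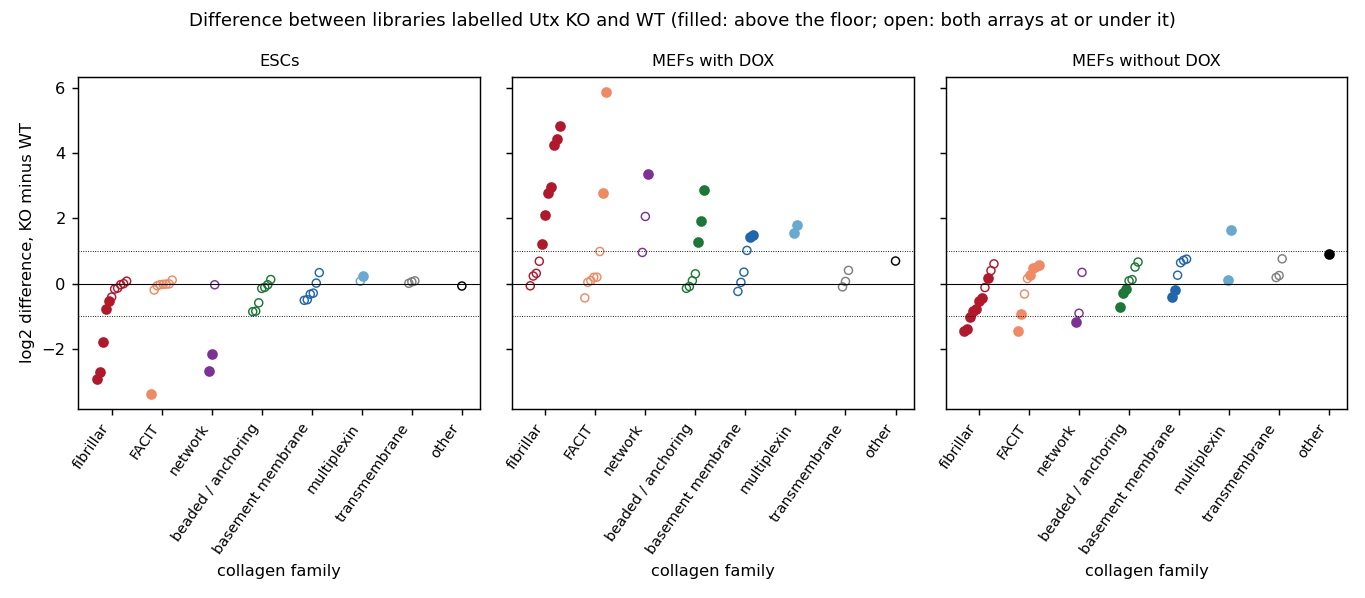
Log2 difference, library labelled KO minus WT, of each collagen by family in ESCs, MEFs with DOX and MEFs without DOX. Filled points are above the floor on either array, open points on neither, and dotted lines mark 2-fold. In ESCs 6 members lie below the lower line, in MEFs with DOX 17 filled points lie above the upper line, and without DOX 5 lie below and 1 above.

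The library labelled KO with DOX was close to WT MEFs without DOX for every collagen, as for most genes. Over all genes above the floor, 8617 of 9024 lay within 2-fold, so the closeness is not particular to the collagens. Of 17 collagens above the floor 0 were called in either direction, where 1.88% of all genes were higher and 2.63% lower. Over all 41, differences ran from -0.74 to 0.63. The median absolute difference was 0.13 over the collagens and 0.21 over all 13562 genes. Col1a1 read 12.72 in the library labelled KO with DOX and 12.86 in WT without DOX, Col3a1 read 11.41 and 11.47, and Col12a1 read 12.35 and 12.47. Macrophage markers were not close, with all 11 above the floor lower, at a median of 7.18 in the library labelled KO with DOX and 9.53 in WT MEFs without DOX.

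Without DOX, the library labelled KO differed from WT MEFs in fewer collagens and by less. Of 22 above the floor 5 were lower, 1 was higher and 16 lay within 2-fold, where 9.53% of all genes were lower and 5.04% higher. The median difference was 0.12 over 41 collagens, -0.42 over the 22 above the floor and -0.11 over all genes above the floor. Col5a2, Col5a1, Col11a1, Col8a1 and Col14a1 were lower. With array medians aligned 4 of 27 were lower and 2 higher, where 7.07% of all genes were lower and 6.99% higher: Col5a1 left the calls and Col26a1, at 7.73 in the library labelled KO and 6.82 in WT, joined the higher ones.

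Col14a1 read 8.63 in the library labelled KO without DOX and 10.08 in WT, a difference of -1.45, and Col5a2 read 8.31 and 9.76, also -1.45. Col11a1 differed by -1.39 and Col8a1 by -1.19. The abundant collagen I chains lay within 2-fold, Col1a1 at 12.34 in the library labelled KO and 12.86 in WT, and Col1a2 at 12.01 and 12.44. Col15a1 went the other way, at 9.40 in the library labelled KO and 7.76 in WT, 3.11-fold higher. Tek, an endothelial receptor gene, read 9.88 in the library labelled KO and 6.43 in WT, with the other 3 endothelial markers measured under the floor in both. Of the epithelial markers above the floor 3 of 4 were higher, with Cdh1 at 9.54 in the library labelled KO and 5.79 in WT, and both pluripotency markers above the floor were higher, with Nanog at 7.82 and 5.43. Smooth muscle markers were lower in 4 of 6 and macrophage markers in 10 of 11 above the floor, and Sox9 and Comp of the cartilage list were lower, at 8.54 and 6.76 in the library labelled KO and 10.25 and 8.96 in WT. Their part in the collagen differences was not tested.

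Between the KO MEF libraries as labelled, few collagens differed by 2-fold with DOX, much as among all genes. The median absolute difference was 0.45 over the collagens and 0.36 over all genes. Of 22 above the floor 2 were higher with DOX, 1 was lower and 19 lay within 2-fold, where 6.81% of all genes were higher and 2.93% lower. The median difference was -0.26 over 41 collagens, 0.34 over the 22 above the floor and 0.13 over all genes above the floor. Col14a1 read 10.20 in the library labelled KO with DOX and 8.63 in the one labelled KO without DOX, and Col5a2 read 9.60 and 8.31. Col15a1 read 8.00 in the library labelled KO with DOX and 9.40 in the one without. Had the DOX labels of the KO MEFs been exchanged, these 3 differences would turn to -1.58 for Col14a1, -1.29 for Col5a2 and 1.40 for Col15a1, so that Col14a1 and Col5a2, not Col15a1, would be lower with DOX in both genotypes. Against WT MEFs, 18 of 22 collagens would then be higher with DOX and 0 lower, where 10.6% of all genes would be higher and 13.7% lower.

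The difference between arrays with and without DOX in the MEFs labelled KO, minus the same in WT MEFs, had a median of 0.30 over 41 collagens. Over the 22 above the floor it was 2.33, and over all genes above the floor 0.10. Of the 22, 16 were at 1 or more and 0 at -1 or less, where 20.9% of all genes were at 1 or more and 14.5% at -1 or less. Col12a1 had 6.81, and 5.16 with the KO labels exchanged, and Col15a1 had 0.16, and 2.96 with them exchanged. This value rests on 4 arrays and was not tested.

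**Figure D4:**
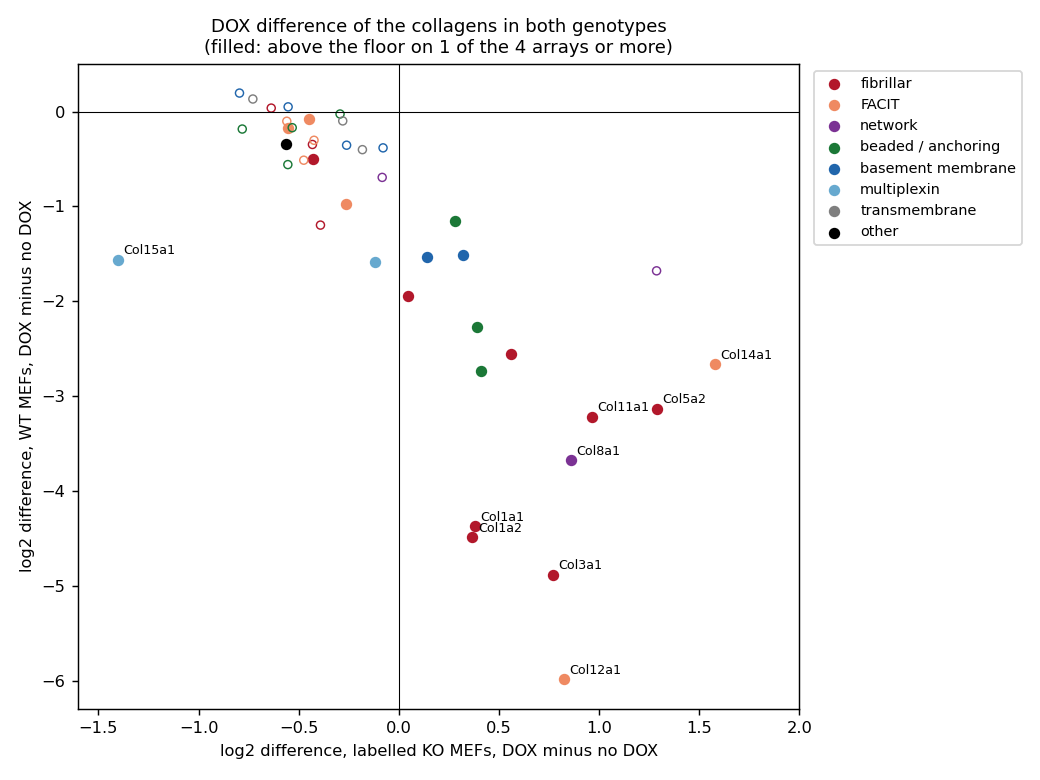
Log2 difference with DOX minus without DOX of each of the 41 collagens, in the KO MEFs as labelled (horizontal) and in WT MEFs (vertical), coloured by family. Most filled points lie low and slightly right of 0, with Col12a1 lowest at -5.99 in WT MEFs, and Col15a1 alone lies far to the left.

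The Nanog KO fibroblasts had higher collagens than the WT MEFs with DOX. As deposited, 32 of 33 collagens above the floor were higher on the Nanog KO array and 0 lower, where 37.2% of all genes were higher and 5.53% lower. With array medians aligned, 14 of 22 were higher and 0 lower, where 13.1% of all genes were higher and 13.3% lower. The 14 included 7 fibrillar genes, with Col12a1, Col14a1 and Col16a1 of the FACIT family. The arrays also differed in cell line and in how the factors were delivered, which cannot be told apart from the Nanog genotype.

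Col3a1 read 12.66 on the Nanog KO array and 6.59 in WT MEFs with DOX, a difference of 6.07 as deposited and 5.33 with aligned medians. Col1a2 read 13.21 and 7.95, and Col1a1 13.11 and 8.49, with aligned differences of 4.52 and 3.88. Col14a1 read 12.08 on the Nanog KO array and 7.42 in WT MEFs with DOX, an aligned difference of 3.92. Col4a1 and Col4a2 lay within 2-fold once medians were aligned, at 0.40 and 0.27, as did Col18a1 at 0.50. On the folding list 15 of 17 members were higher as deposited, at a median of 2.01, and 1.27 with aligned medians. Fibroblast markers had a median of 11.04 on the Nanog KO array and 8.26 in WT MEFs with DOX, epithelial markers 7.26 and 9.97, and macrophage markers 8.39 and 5.29. The median differences of these markers were 2.08, -2.83 and 1.82 as deposited, and 1.34, -3.57 and 1.08 with aligned medians. Their part was not tested.

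Against WT MEFs without DOX, the Nanog KO array had 15 of 33 collagens higher and 1 lower as deposited, where 35.1% of all genes were higher and 3.72% lower. With aligned medians 1 of 24 was higher and 5 were lower, where 9.41% of all genes were higher and 11% lower. Col14a1 was the higher one under both scalings, at 12.08 on the Nanog KO array and 10.08 in WT MEFs without DOX, with an aligned difference of 1.26. Col12a1 was lower under both, at 11.41 and 12.47, with an aligned difference of -1.81. Col4a1, Col4a2, Col6a1 and Col18a1 were lower with aligned medians only, with aligned differences of -1.26 to -1.03. Itga11 and Itga1 read 6.68 and 6.83 on the Nanog KO array and 11.50 and 9.14 in WT MEFs without DOX. As deposited, all 6 smooth muscle markers were lower on the Nanog KO array, at a median difference of -2.06, as were 4 of 11 macrophage markers above the floor, while 4 of 5 epithelial markers above the floor were higher. With aligned medians the median difference was -2.80 over the smooth muscle markers. Over all macrophage markers it was -1.30, against -0.56 as deposited, and over all epithelial markers 0.25, against 0.99. Their part was not tested.

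WT ESCs had lower collagens than WT MEFs without DOX, with Col10a1 the exception. Of 18 above the floor 16 were lower, 1 was higher and 1 lay within 2-fold, where 19.8% of all genes were lower and 14.5% higher. The median difference was -0.55 over 41 collagens, -2.45 over the 18 and 0.01 over all genes above the floor. In the MEFs 17 collagens were above the floor and in the ESCs 9, so many of the 18 entered through the MEF array alone. Collagen VI chains differed by -3.86 (Col6a1), -3.91 (Col6a2) and -4.81 (Col6a3). Col6a3 read 6.49 in WT ESCs and 11.30 in WT MEFs without DOX, at least 15.5-fold lower. Col14a1 read 5.80 in WT ESCs and 10.08 in WT MEFs without DOX. The collagen I chains differed less, Col1a1 by -2.55 and Col1a2 by -3.04. Col10a1 read 8.48 in WT ESCs and 6.95 in WT MEFs without DOX, at least 2.21-fold higher, and Col18a1, at 8.32 and 7.83, was the one within 2-fold.

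Of the 6 collagens lower in KO than in WT ESCs, Col10a1 was under the floor in both WT MEF libraries. The other 5 were lower with DOX in WT MEFs, as were, as deposited, all collagens above the floor there, so nothing is read from their overlap. Col14a1, at 5.78 in KO and 5.80 in WT ESCs, and Col6a3, at 5.63 and 6.49, were under the floor in both ESC libraries, where a difference cannot be judged.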

How the data were processed

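RNA of 7 samples was hybridised to 1 array each. The values deposited by the authors are on a log2 scale. Per the submitters' processing notes, RMA was run in Affymetrix Expression Console. Software versions and the genome build were not stated in those notes. RMA in general subtracts background, brings arrays processed together to a common distribution and combines the probes of a row. The 7 deposited arrays did not share a distribution, with a median of 8.55 on the Nanog KO array and 7.68 to 7.84 on the others. The table held 21811 rows, of which 14894 carried 1 gene symbol in the platform annotation. Left out were 925 rows with several symbols and 5992 that the annotation does not list. Gene IDs of 14854 rows matched RefSeq (GRCm38.p6). For 754 of 13562 genes, more than 1 row existed, and the one highest on average was taken. Groups came from the labels.

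Log2 differences of 2 arrays were taken per gene and counted at 2-fold above a floor of 7.34, which is percentile 40 of the whole table. No test was made, and the counting was tested on simulated data. All collagens could be named, and from the pathway and marker lists the 2 genes with the largest difference each way, with Kdm6a, Nanog and Pou5f1. Serpinh1, Dcn, Eif2s3y, Uty, Prrx1, Lum, Itga2, Sox9, Comp and Matn1 were also named after their values were seen. Members and lists were chosen with earlier results of these data known. Col6a4, Col6a5, Col6a6, Col22a1 and Col26a1 were put in families after the values were seen. Alternatives were aligned medians, quantile normalization, no floor, a floor at the 60th percentile (8.48), a threshold of 1.5-fold, the mean over a gene's rows and, chosen after the data were seen, the DOX labels of the KO MEFs exchanged. Python 3.11.15, numpy 2.4.6, pandas 2.3.3 and matplotlib 3.10.9 were used. Depth has no counterpart on arrays.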

Additional observations from a re-analysis of the deposited data

Results flagged for a closer look

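Some collagens were called in opposite directions under the same contrast in 2 settings, each with 1 array per condition, so none of these differences was tested. The values below are log2 differences of differences. The library labelled KO with DOX enters all of them, and the DOX labels of the KO MEFs are in doubt. With those labels exchanged, Col5a2 and Col14a1 would be lower with DOX in both genotypes. As deposited, the 17 collagens above the floor were all lower with DOX in WT MEFs. With DOX, the 17 above it were all higher in the library labelled KO than in WT. Any of them called the other way in the second setting is thus opposite by construction.

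The difference with DOX went opposite ways in the KO MEFs as labelled and the WT MEFs for Col5a2, by 4.42 (1.29 in KO, -3.13 in WT), and for Col14a1, by 4.24 (1.58 in KO, -2.66 in WT).

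The difference between KO and WT went opposite ways in ESCs and in MEFs with DOX for 5 collagens. ESCs minus MEFs with DOX gave -6.95 for Col1a1, -7.36 for Col1a2, -4.77 for Col5a2, -6.03 for Col8a1 and -9.24 for Col12a1.

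It also went opposite ways in MEFs without DOX and MEFs with DOX for 5 collagens. With the KO labels exchanged, 0 collagens would be called between KO and WT without DOX, so none of these 5 would remain. MEFs without DOX minus MEFs with DOX gave -3.11 for Col5a1, -4.42 for Col5a2, -4.53 for Col8a1, -4.18 for Col11a1 and -4.24 for Col14a1.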

How the results depend on the processing

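Of 224 recomputed counts and medians, 188 stayed within 1.5 times of their value or of its fold, 31 moved by more and 5 changed sign. Part of the 188 could not move. All 41 collagens had 1 row, so the 28 results with the mean over rows were fixed. Medians over all collagens do not use the floor, and exchanging the KO MEF labels leaves comparisons without those arrays unchanged. The 188 is therefore no measure of stability. Sign changes of medians close to 0 were counted among the 188. An example is the library labelled KO with DOX against WT MEFs without DOX, at -0.0476 and, under quantile normalization, 0.0147. In the Nanog KO comparison with WT MEFs with DOX, collagens higher numbered 14 under aligned medians and under quantile normalization and 15 with the floor at the 60th percentile, against 32, and the median was 0.79 under both scalings, against 1.53. Against WT MEFs without DOX, 1 was higher under either scaling and 3 with the stricter floor, against 15, and 5 were lower with aligned medians, 4 with quantile normalization and 2 without a floor, against 1. The median there was 0.16 and 0.14, against 0.90. For the library labelled KO without DOX against WT, 2 collagens were higher under both scalings and at 1.5-fold, against 1, and 9 were lower at 1.5-fold, against 5. At 1.5-fold, 6 were higher with DOX in MEFs labelled KO, against 2, and between the library labelled KO with DOX and WT MEFs without DOX 1 was lower, against 0. Shares over all genes were not recomputed under quantile normalization, the other floors or 1.5-fold. Counts under those settings therefore show only how the calls move, not how collagens compare with other genes.

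Settings chosen after the data were seen exchanged the DOX labels of the KO MEFs, kept 36 collagens, or took medians over members above the floor. With the labels exchanged, the KO library without DOX had 0 collagens higher and 0 lower than WT, at a median of -0.0476, DOX in the KO MEFs gave 1 higher and 2 lower, at 0.2609, the KO library with DOX had 1 higher and 5 lower than WT MEFs without DOX, and the median difference in DOX response was 0.9664. The median for the library labelled KO without DOX against WT turned from 0.12 to -0.0202 over 36 collagens and to -0.42 over members above the floor, and that for DOX in the KO MEFs as labelled turned from -0.26 to 0.34. Over members above the floor the median was -2.17 between the ESCs, 2.78 between the MEFs with DOX, -2.66 for DOX in WT MEFs, -2.45 between WT ESCs and WT MEFs, and 2.33 for the difference in DOX response. Many of these members passed the floor only on the array where they were higher, which by itself can enlarge such medians. No paired analysis was possible because each condition had 1 array, and for the same reason no replicate was left out. Signal near the floor limits values under about 7.34.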

Other observations

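Of the cartilage genes, Sox9, a transcription factor that drives Col2a1, read 9.70 on the Nanog KO array, 10.36 and 7.29 with DOX in the MEFs labelled KO and WT, and 8.54 and 10.25 without DOX in the MEFs labelled KO and WT. Comp, which binds collagen fibrils, read 6.55, 9.39, 5.61, 6.76 and 8.96 on the same arrays. Comp was thus above the floor in the library labelled KO with DOX and in WT MEFs without DOX, and in neither ESC library, at 5.23 in KO and 5.60 in WT ESCs. Matn1, a cartilage matrix protein gene, was under the floor on all 7 arrays.

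Lama1, a laminin chain of early embryonic basement membranes, read 9.19 in the library labelled KO without DOX and 6.25 in WT MEFs without DOX. WT ESCs read 9.56, and the library labelled KO with DOX read 6.78. Itga2, a chain of a collagen-binding integrin, read 9.42 on the Nanog KO array, 6.66 in the library labelled KO with DOX, 7.98 in WT MEFs with DOX and 7.31 in WT MEFs without DOX.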
